A study of Mus musculus with 4 samples.

Results

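Transcripts of Lcn2, S100a8, S100a9, Ngp, Camp, Lrg1, Alas2, Bpgm and Slc4a1, 9 genes known from neutrophils, the acute phase response and red blood cells, were followed in the prefrontal cortex of mice under repeated social threat and of control mice. They were taken by symbol from an expression array: each probe set whose annotation gives exactly 1 symbol, that symbol being one of these, was kept, which gave 13 probe sets for the 9 genes, out of 18193 genes measured under a single symbol. The 2 threat pools (environment labelled HighThreat) and the 2 control pools (LowThreat) each held total RNA of 5 mice. Strain, sex, age, the threat procedure and its duration were not stated in the labels, which name no genetic change. All pools were dissected prefrontal cortex, read on Affymetrix MOE430 2.0 arrays.

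The 6 neutrophil and acute phase genes encode secreted and cytosolic defence proteins. Lcn2 is lipocalin 2, which binds bacterial siderophores and so withholds iron. S100a8 and S100a9 form calprotectin, a calcium- and zinc-binding dimer that fills the neutrophil cytosol. Ngp and Camp are granule proteins, Camp being the mouse cathelicidin, and Lrg1 is a leucine-rich glycoprotein of plasma that liver, neutrophils and endothelium make. In brain, Lcn2 and Lrg1 are known to be induced in astrocytes and vessels by inflammatory signals, while S100a8, S100a9, Ngp and Camp mostly mark blood neutrophils. Of the 3 erythroid genes, Alas2 is the first enzyme of haem synthesis in red cell precursors, Bpgm makes the bisphosphoglycerate that lowers the oxygen affinity of haemoglobin, and Slc4a1 is band 3, the anion exchanger of the red cell membrane.

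Each of the 9 genes, by its brightest probe set, averaged lower in the threat pools than in the control pools, though Slc4a1 lay within the array background. In 7 of them both threat pools lay below both control pools, and 5 of these differed by at least 1.5-fold (Lcn2, Lrg1, S100a8, S100a9 and Alas2). Over all genes, 44.3% averaged lower in the threat pools, 18.8% had both threat pools below both control pools, and 0.715% also met the 1.5-fold size in that direction. The pools lay apart the other way, threat above control, in 26.2% of all genes. The 9 genes were chosen by their threat and control values in these same arrays, so their differences are described and not tested, and their counts are no evidence beyond the values themselves. In bulk tissue, fewer cells of a type and less RNA per cell cannot be told apart.

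Background on the array was read from 27 probe sets for Bacillus genes, which match no mouse transcript and ranged from 3.01 to 4.25 on the log2 scale over the 4 arrays. The highest value was 4.25 in threat pool 1, 4.17 in threat pool 2, 4.17 in control pool 1 and 4.23 in control pool 2. Across the table, 29.8% of probe sets had a mean no higher than 4.25. The array medians lay between 5.53 and 5.58. The arrays correlated with each other at 0.9942 to 0.9961 over probe sets. Threat pool 2 correlated with control pool 2 at 0.996, against 0.9957 between the control pools and 0.9961 between the threat pools. The neuronal marker Snap25, a synaptic vesicle fusion protein, was bright, at 13.19 and 13.24 in the threat pools and 13.34 and 13.38 in the control pools. It marks neurons and does not show which brain region was dissected.

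**Figure D1:**
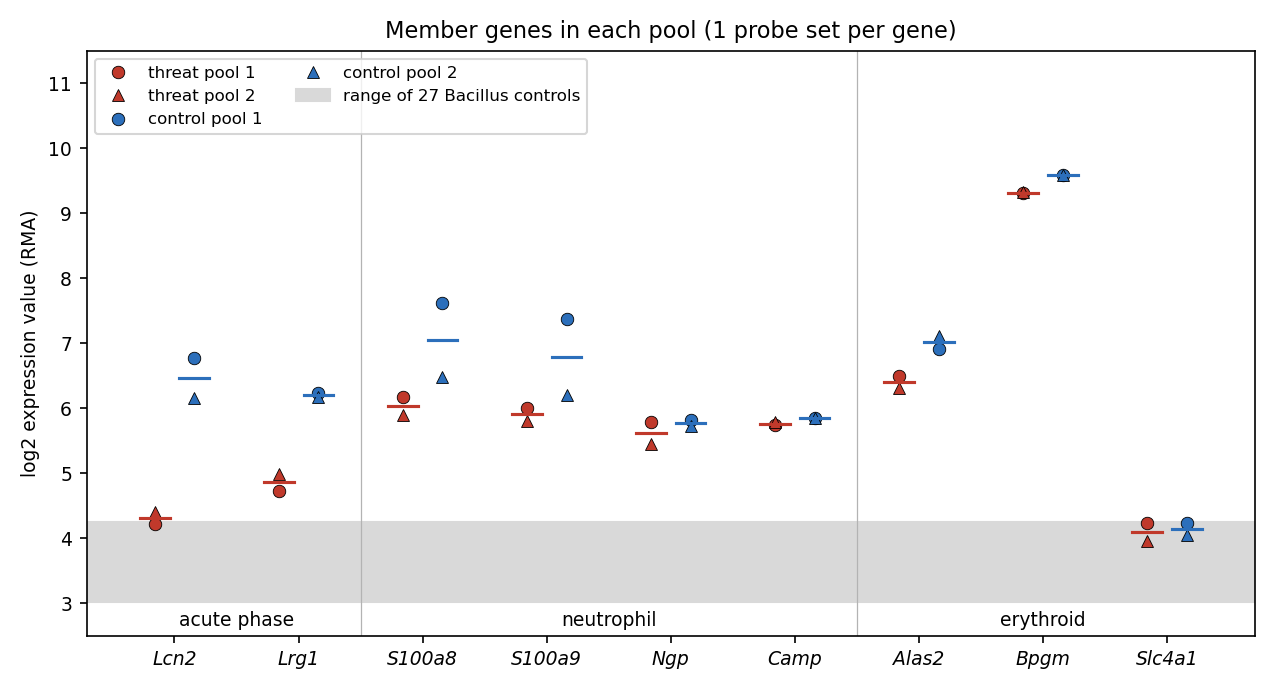
Log2 expression values of the 9 genes in each pool, 1 probe set per gene, with threat pools in red at the left and control pools in blue at the right of each gene. Short lines are group means, and the grey band is the range of the Bacillus control probe sets. Lcn2 sits at the upper edge of the band in the threat pools, and Slc4a1 lies within it in every pool.

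Lcn2 showed the largest difference. It measured 4.22 and 4.40 in the threat pools, against 6.78 and 6.15 in the control pools. The threat pools were thus both at the edge of the Bacillus range, while both control pools lay well above it and above the array median. The means were 4.31 ± 0.13 in threat and 6.47 ± 0.44 in control (SD, n = 2 each). On the log2 scale threat minus control was -2.16 ± 0.21 (SE), which is 4.46-fold lower. The threat mean was only 0.06 above the highest Bacillus value, against 2.22 for the control mean, so the background limits how low the threat pools could read. The lowest control pool exceeded the highest threat pool by 1.76, more than the 0.63 between the control pools or the 0.18 between the threat pools. With each gene read by its brightest probe set, Lcn2 had the lowest difference of the 18193, and without 1 pool its difference ranged from -2.47 to -1.85.

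Lrg1 was also lower in both threat pools, and its control pools lay close together. Its values were 4.73 and 4.99 in the threat pools and 6.23 and 6.17 in the control pools. All 4 lay above the highest Bacillus value, the threat pools by 0.61 on average. The difference was -1.34 ± 0.12 (SE), or 2.53-fold lower, the fifth lowest among genes. The gap of 1.17 between the groups was larger than the 0.26 between the threat pools and the 0.07 between the control pools. Without 1 pool the difference ranged from -1.47 to -1.21.

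The calgranulins S100a8 and S100a9 were lower in both threat pools, but the size rested on control pool 1. S100a8 measured 6.17 and 5.90 in the threat pools, against 7.62 and 6.49 in the control pools. S100a9 measured 6.005 and 5.81 in the threat pools, against 7.38 and 6.21 in the control pools. In both genes control pool 1 stood apart, while control pool 2 was 0.32 above the higher threat pool for S100a8 and 0.20 above it for S100a9. These gaps are smaller than the distances of 1.14 and 1.17 between the 2 control pools. The differences were -1.02 ± 0.36 (SE) for S100a8, 2.03-fold lower, and -0.89 ± 0.37 for S100a9, 1.85-fold lower. Without control pool 1 they came to -0.45 and -0.30, both short of 1.5-fold, and without control pool 2 to -1.59 and -1.47.

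The 2 calgranulins varied together over the pools. The log2 value of S100a8 minus that of S100a9 was 0.16 and 0.09 in the threat pools and 0.24 and 0.28 in the control pools, an offset that says nothing of which transcript was more abundant. With each gene centred on its own mean, S100a9 was closer to S100a8 than any other probe set with 1 symbol, at a Euclidean distance of 0.15 over the 4 pools. Lcn2 lay at 1.23 and Lrg1 at 0.90 from S100a8. The probe set of S100a8 is of the kind that may match more than 1 transcript (suffix _s_at), which adds to its uncertainty.

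Ngp and Camp, the other neutrophil genes, differed little. Ngp measured 5.78 and 5.45 in the threat pools and 5.82 and 5.72 in the control pools, and the groups overlapped. Camp measured 5.74 and 5.78 in the threat pools and 5.85 and 5.85 in the control pools, which do not overlap. The differences were -0.15 ± 0.14 for Ngp and -0.09 ± 0.09 for Camp. Both genes lay near the array median in all 4 pools, and their group means were 1.36 to 1.60 above the highest Bacillus value. Without threat pool 2, the difference of Ngp was 0.01.

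**Figure D2:**
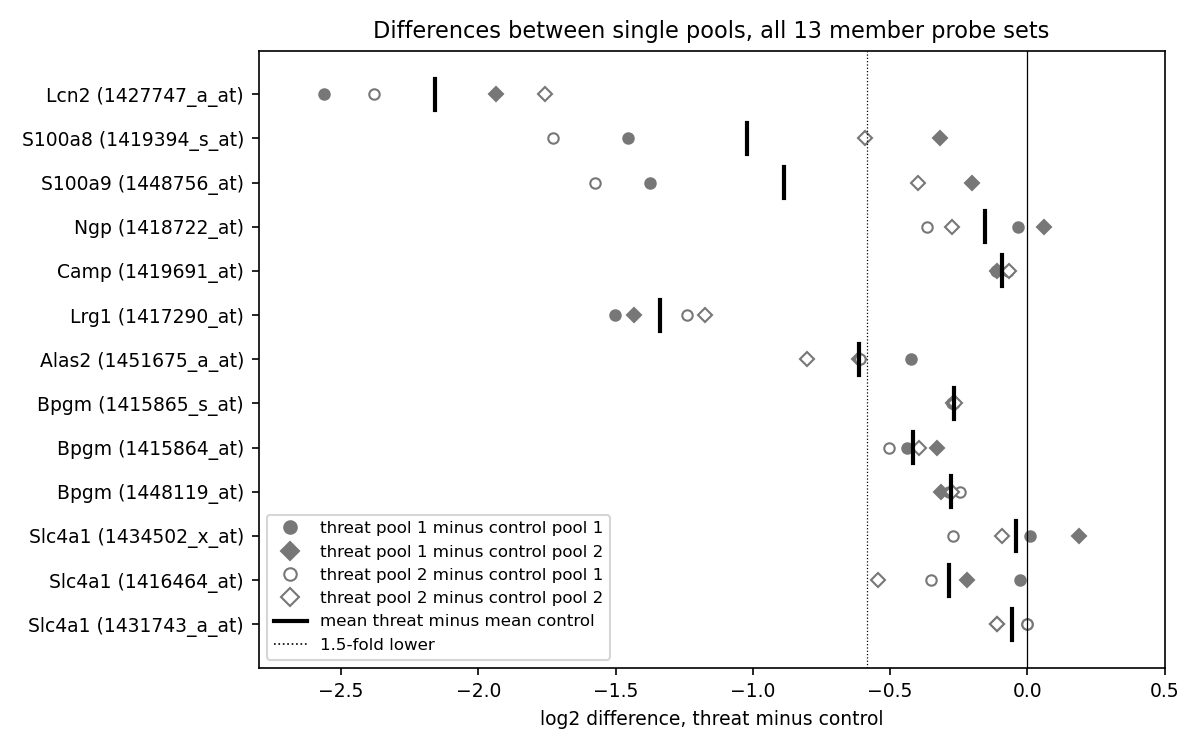
Differences on the log2 scale between each threat pool and each control pool for the 13 probe sets, with the difference of the group means as a black bar and 1.5-fold lower as a dotted line. All 4 pool pairs of Lcn2 and Lrg1 lie past the dotted line, while those of S100a8 and S100a9 lie farther left against control pool 1 than against control pool 2 and those of Ngp lie on both sides of 0.

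The promoters of Lcn2, S100a8 and S100a9 are shown. Lcn2 had the largest difference, and the calgranulins, which both lie on chromosome 3, kept close to each other over the pools. Lrg1, which differed more than the calgranulins, is not printed. Each run gives the 250 bases before the RefSeq start in GRCm38.p6, 5′ to 3′ on the gene's strand. The positions are chr2:32387740-32387989 (- strand), chr3:90668821-90669070 (+ strand) and chr3:90695722-90695971 (- strand). Capitals mark matches, on either strand, to 6 motifs, with overlapping matches merged. They are the NF-kB consensus, TTGCNNAA for C/EBP factors, TTCNNNGAA for STAT factors, AGATAA for GATA factors, CCNCNCCC for KLF factors and the TATA box letters TATAAA.
Lcn2: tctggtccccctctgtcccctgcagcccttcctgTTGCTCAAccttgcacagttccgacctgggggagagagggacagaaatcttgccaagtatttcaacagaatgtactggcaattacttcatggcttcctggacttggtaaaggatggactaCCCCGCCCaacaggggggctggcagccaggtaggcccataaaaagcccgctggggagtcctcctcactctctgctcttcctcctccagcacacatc
S100a8: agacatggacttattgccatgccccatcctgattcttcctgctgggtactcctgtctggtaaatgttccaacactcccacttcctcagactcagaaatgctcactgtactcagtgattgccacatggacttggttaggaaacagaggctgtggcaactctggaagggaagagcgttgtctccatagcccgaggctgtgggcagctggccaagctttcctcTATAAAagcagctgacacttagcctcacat
S100a9: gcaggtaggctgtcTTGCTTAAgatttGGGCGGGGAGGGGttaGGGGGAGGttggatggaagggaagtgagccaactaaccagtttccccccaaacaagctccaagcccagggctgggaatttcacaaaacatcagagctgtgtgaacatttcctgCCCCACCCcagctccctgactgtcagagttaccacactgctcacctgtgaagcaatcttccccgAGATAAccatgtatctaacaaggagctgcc
Positions are counted back from the start, the base before it being -1. Lcn2 held a C/EBP match from -216 to -209 and a KLF match from -96 to -89. S100a8 held a single match, the TATA box from -30 to -25, while S100a9 had GATA letters at those positions, a C/EBP match from -236 to -229 and 4 KLF matches, of which the first pair overlap. Of 32851 promoter windows of this length, 9.6% held the C/EBP letters, 45.9% KLF, 12.4% the TATA box and 10% the GATA letters. The NF-kB letters, found in 7.3% of windows, and the STAT letters, found in 7.0%, had no match in these 3 windows.

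Other neutrophil genes were next set beside the members. Of 22 measured genes of neutrophil granules and the oxidase, 19 averaged lower in threat. In 13 the threat pools were both below the control pools and in 2 both above, beside 18.8% and 26.2% of all genes. The median log2 difference was -0.17, against 0.02 over all genes. In limma's test over all 45037 probe sets none of the 22 had an adjusted p under 0.05, nor did any probe set (0 called, 0.0%). At an unadjusted p under 0.05, 3 of the 22 were lower and none higher, beside 5.73% of all probe sets lower and 4.87% higher. Read by 1 probe set each, 5.76% of all genes were lower at that level. In 5 of the 22 no pool lay above the Bacillus range. None reached 1.5-fold with separate pools. Their signal, added over genes on the linear scale, was 946.1 and 1089 in the threat pools and 1104 and 1263 in the control pools. Both threat sums were below both control sums, but the brightest genes weigh most in such a sum. The order rests on Cyba, an oxidase subunit at 7.76 and 7.67 in the threat pools and 8.025 and 8.07 in the control pools. The part of these genes in the member values was not tested.

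Anxa1, annexin A1, measured 5.996 and 7.86 in the threat pools and 6.75 and 8.20 in the control pools, which overlap. Cybb, the oxidase subunit also found in microglia, measured 3.52 and 5.00 in the threat pools and 4.54 and 5.04 in the control pools. Both genes varied more between the threat pools than between the group means, with differences of -0.55 ± 0.71 and -0.53 ± 0.48. Pglyrp1, a peptidoglycan-binding granule protein, differed by -0.41 ± 0.18 and Ncf4, a cytosolic oxidase subunit, by -0.41 ± 0.11, each with separate pools. The granule enzymes Mpo, Prtn3 and Elane differed by -0.11 ± 0.10, 0.15 ± 0.11 and -0.28 ± 0.13.

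Among 18 neutrophil surface receptors and regulators, 15 averaged lower in threat. The pools lay apart in 9, with threat lower in 8 of them, beside 18.8% of all genes lower and 26.2% higher. The median was -0.095. In limma's test 1 of the 18 was lower at an unadjusted p under 0.05, beside 5.76% of all genes. Itgb2, the beta chain of leukocyte integrins, differed by -0.29 ± 0.12, and Csf3r, the receptor for the neutrophil growth factor G-CSF, by -0.27 ± 0.10. The formyl peptide receptor Fpr2 and the amplifying receptor Trem1 followed at -0.18 ± 0.09 and -0.17 ± 0.09. In 5 of the 18 no pool lay above the Bacillus range. Among them were the chemokine receptor Cxcr2, a defining marker of neutrophils, and Cd177, both picked after their values were seen.

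Acute phase genes as a list had a median near 0. Of 31 measured, 20 averaged lower and 11 higher in threat. Of the 7 whose pools lay apart, 4 were lower and 3 higher, beside 18.8% and 26.2% of all genes. The median was -0.04. In 9 of the 31 no pool lay above the Bacillus range, and over the other 22 the median was -0.11. Saa3, serum amyloid A3, measured 5.03 and 4.80 in the threat pools and 5.37 and 4.85 in the control pools. Serpina3n, an astrocyte serpin that inflammation is known to induce along with Lcn2, measured 7.23 and 7.32 in the threat pools and 7.29 and 7.33 in the control pools, a difference of -0.04 ± 0.09. Saa3 and Serpina3n were picked here after their values were seen. Ceruloplasmin (Cp) differed by -0.74 ± 0.45 and the lipopolysaccharide-binding protein Lbp by -0.45 ± 0.36, both with overlapping groups. The cytokine receptor Osmr differed by -0.40 ± 0.22, also with overlap, and Cd14, the co-receptor for lipopolysaccharide, by -0.37 ± 0.09 with separate pools. The adjusted p of Cd14 was 0.427 in limma's test, the smallest of this list.

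Receptors and partners of the secreted members were set beside them. Slc22a17, the brain-type receptor for Lcn2, measured 11.89 and 11.90 in the threat pools and 11.59 and 11.84 in the control pools, a difference of 0.18 ± 0.11. Bsg, basigin, a receptor for S100a9, differed by 0.02 ± 0.09, and Tlr4, the receptor for calprotectin, by 0.13 ± 0.18. Endoglin (Eng), the endothelial co-receptor through which Lrg1 is known to act, measured 7.25 and 7.38 in the threat pools and 7.78 and 7.67 in the control pools, a difference of -0.41 ± 0.10. Its partner Acvrl1 differed by -0.16 ± 0.09 and Ly96, the partner of Tlr4, by -0.14 ± 0.17. The pools lay apart in 3 of the 11 measured (Eng and Acvrl1 lower, Slc22a17 higher), beside 18.8% of all genes lower and 26.2% higher. The list's median was -0.02. The adjusted p of Eng was 0.427 in limma's test.

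**Figure D3:**
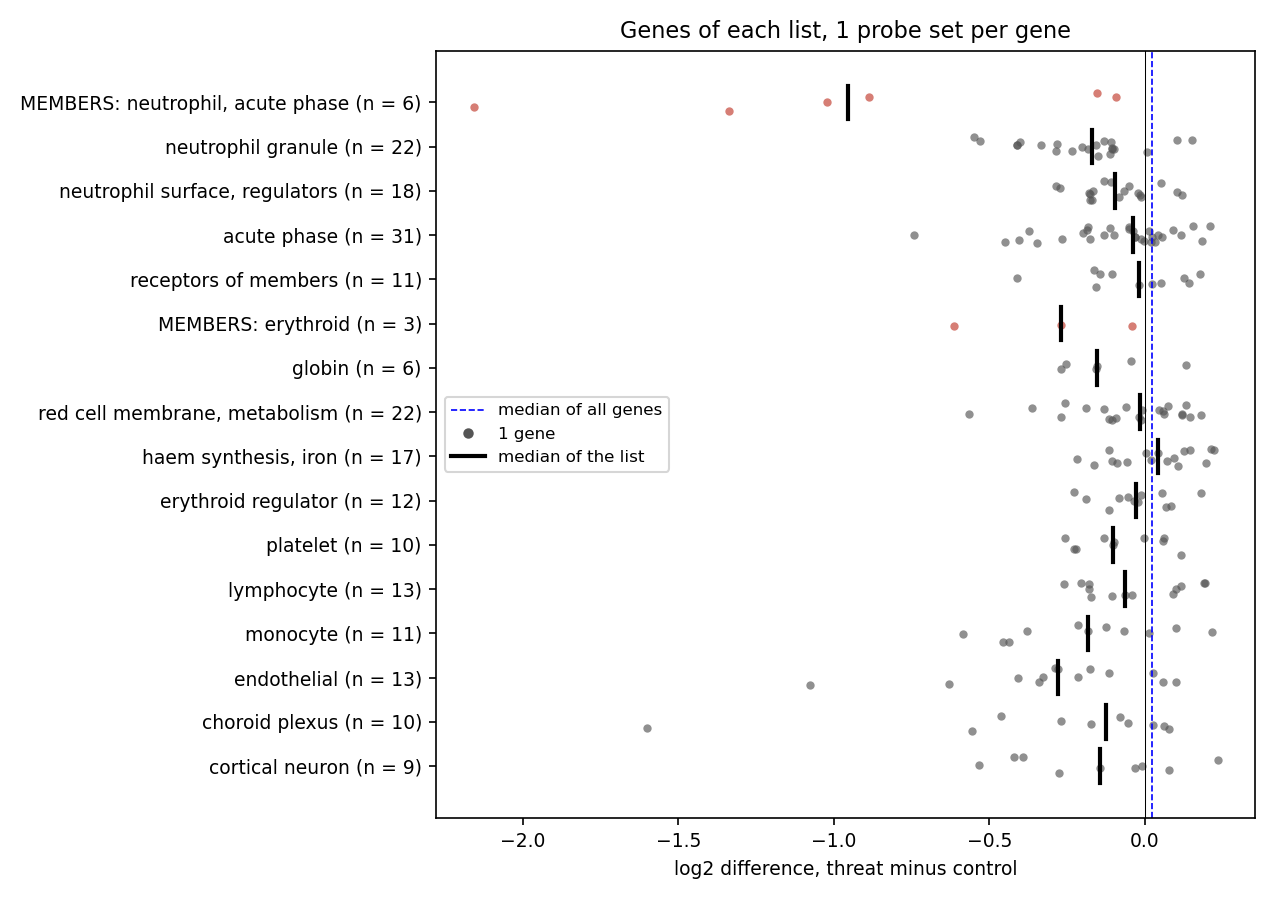
Log2 differences (threat minus control) of single genes in the member groups, in red, and in 14 further lists, in grey, with list medians as black bars. The dashed line is the median of all genes. Lcn2, Lrg1, S100a8 and S100a9 lie left of every gene of the neutrophil and acute phase lists, and Alas2 left of every gene of the erythroid and globin lists. In the vessel and choroid plexus lists, Ttr lies left of Lrg1, Vwf left of S100a8 and S100a9, and Pecam1 left of Alas2. The members were chosen by these values.

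In the erythroid group, Alas2 and Bpgm were lower in both threat pools, and Slc4a1 could not be told from background. Alas2 measured 6.49 and 6.31 in the threat pools, against 6.92 and 7.11 in the control pools. The groups did not overlap, the gap of 0.42 being wider than the distance of 0.19 within each group. The difference was -0.61 ± 0.12 (SE), or 1.53-fold lower, and ranged from -0.71 to -0.52 without 1 pool, and it fell short of 1.5-fold without control pool 2 (-0.518), without threat pool 2 (-0.52) and with median centring (-0.577). All 3 probe sets of Bpgm had separate pools. The brightest measured 9.31 and 9.32 in the threat pools and 9.59 and 9.58 in the control pools, a difference of -0.27 ± 0.09, and the others differed by -0.42 ± 0.10 and -0.28 ± 0.09.

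The 3 probe sets of Slc4a1 stayed at or below the highest Bacillus value in every pool. The brightest measured 4.24 and 3.96 in the threat pools and 4.23 and 4.05 in the control pools, with overlap. Another read 3.99 and 3.67 in the threat pools and 4.02 and 4.21 in the control pools, which are separate, and the third gave 3.86 in both threat pools and 3.86 and 3.97 in the control pools. These values are background readings, and no change of Slc4a1 can be read from them, although it is counted among the 9 genes above.

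The promoter of Alas2 is shown because this gene had the largest difference of the erythroid members and GATA and KLF factors are known to drive erythroid genes. It is the window chrX:150547167-150547416 (+ strand) of GRCm38.p6, with capitals for the same motifs.
Alas2: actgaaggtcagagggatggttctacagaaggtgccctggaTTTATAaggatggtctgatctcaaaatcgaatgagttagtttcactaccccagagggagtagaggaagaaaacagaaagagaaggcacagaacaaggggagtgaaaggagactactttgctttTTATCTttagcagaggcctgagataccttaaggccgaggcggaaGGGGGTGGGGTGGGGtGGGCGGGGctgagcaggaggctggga
A GATA match lay from -86 to -81, TATA box letters from -209 to -204, and 4 KLF matches, some overlapping, between -42 and -19. The GATA letters occur in 10% of all windows. In the windows of the other members, which are not printed, Ngp held 2 C/EBP matches, Camp and Bpgm 1 KLF match each and Lrg1 2. The window of Slc4a1 was not analysed here.

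Globin transcripts, the most abundant messages of reticulocytes, were read by 4 bright probe sets that the annotation gives jointly to several adult globin genes, and these were lower in both threat pools in each case. They were added after their values were seen, since the rule for single symbols leaves them out. The probe set for 4 adult beta globin genes measured 12.66 and 12.67 in the threat pools, against 13.02 and 12.98 in the control pools, a difference of -0.34 ± 0.09. Of the 3 for 2 adult alpha globin genes, the brightest measured 12.89 and 13.08 in the threat pools and 13.32 and 13.42 in the control pools, a difference of -0.38 ± 0.11. The others differed by -0.48 ± 0.11 and -0.97 ± 0.11, the last at 7.87 and 8.09 in the threat pools and 8.97 and 8.93 in the control pools. The 4 differences correspond to 1.26- to 1.95-fold, and by limma their adjusted p were 0.32 to 0.433, so none passed. Of all probe sets, 19.4% had their threat pools below their control pools. With the 1.5-fold size added, as for the last alpha globin probe set, the share was 0.719% lower and 0.111% higher.

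**Figure D4:**
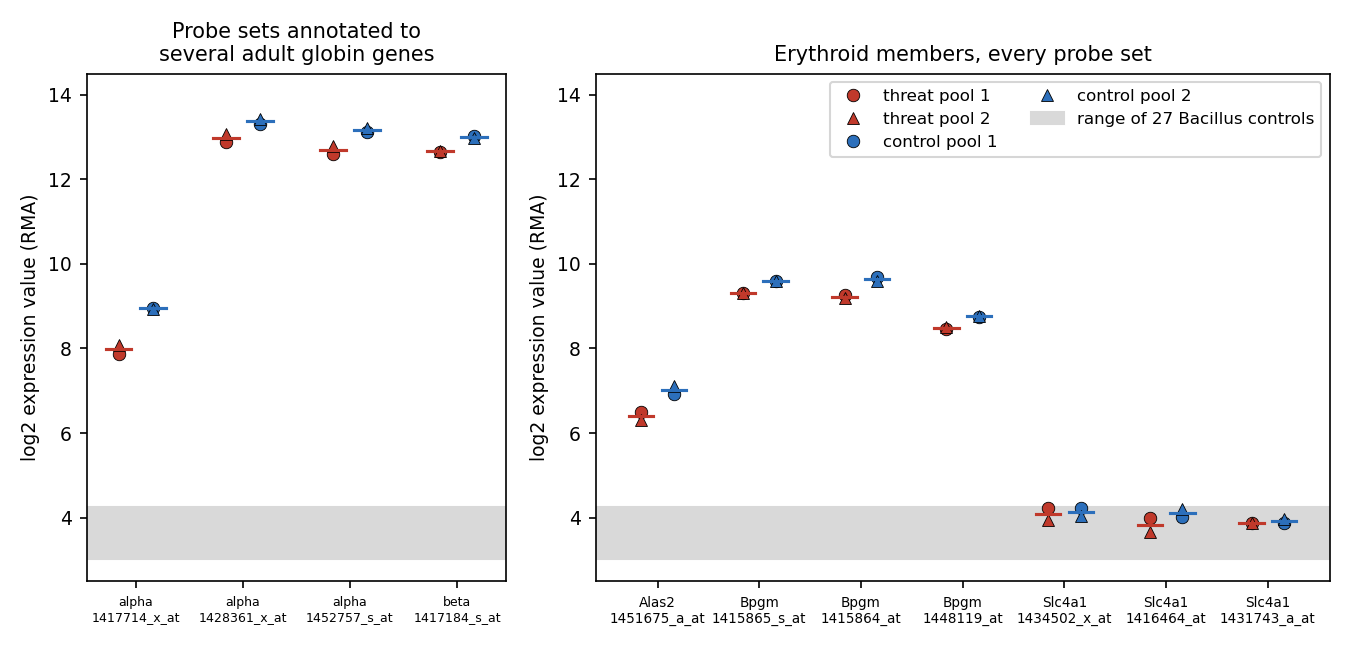
Log2 expression values of the 4 probe sets annotated to several adult globin genes (left) and of every erythroid member probe set (right), with threat pools in red before control pools in blue and the Bacillus range in grey. The globin probe sets lie between 7.87 and 13.42, and the threat pools are below the control pools for each of them, for Alas2 and for all 3 of Bpgm.

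The 6 globin genes with a probe set of their own were dim, between 3.37 and 4.98 in all pools, with a median difference of -0.155. The embryonic zeta-type globin Hba-x differed by -0.27 ± 0.10 with separate pools and Hba-a1 by -0.16 ± 0.13 with overlap. Hbb-b2 differed by -0.15 ± 0.09 and Hba-a2 by 0.13 ± 0.11, each with separate pools. Of the 6, the pools lay apart with threat lower in 2 and with threat higher in 1, beside 18.8% and 26.2% of all genes. Of 22 red cell membrane and metabolic genes, 13 averaged lower, and the median was -0.02. The pools lay apart in 10 (7 lower, 3 higher), beside 18.8% of all genes lower and 26.2% higher. Car1, the carbonic anhydrase of red cells, differed by -0.56 ± 0.14, with both threat pools (4.04 and 3.81) inside the Bacillus range and the control pools at 4.35 and 4.63. Trim10, an erythroid protein, measured 4.98 and 4.97 in the threat pools and 5.32 and 5.35 in the control pools, a difference of -0.36 ± 0.09. The blood group protein Rhd differed by -0.27 ± 0.13 and the red cell pyruvate kinase Pklr by -0.26 ± 0.13. None of these passed, the smallest adjusted p of the list being 0.427 in limma's test.

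Genes of haem synthesis and iron handling, which most cells use, had differences on both sides of 0. Of 17 measured, 6 averaged lower and 11 higher. Of the 9 whose pools lay apart, 4 were lower and 5 higher, beside 18.8% and 26.2% of all genes. The median, 0.04, changed sign with cyclic loess (-0.01). Alas1, the housekeeping form of the enzyme, measured 9.23 and 9.14 in the threat pools and 9.19 and 9.10 in the control pools, a difference of 0.04 ± 0.10. Ppox and Alad, later enzymes of the pathway, differed by 0.22 ± 0.11 and 0.21 ± 0.10, and the iron transporter Slc11a2 by 0.20 ± 0.09. Slc25a37, the mitochondrial iron importer that red cell precursors use heavily, differed by -0.22 ± 0.11 with separate pools. The 12 erythroid regulators had a median of -0.03, with Gfi1b at -0.23 ± 0.13, Lmo2 at -0.19 ± 0.10, Kit at 0.18 ± 0.14 and Nfe2 at -0.12 ± 0.25. Gata1, the master regulator of red cells, measured 4.26 and 4.39 in the threat pools and 4.36 and 4.31 in the control pools, near the Bacillus range.

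Other blood cells and vessels were read from their own marker lists. Of 10 platelet genes the pools lay apart in 1 (Treml1, -0.26 ± 0.10), and Gp9 and Tubb1 differed by -0.23 ± 0.13 and -0.22 ± 0.15 and Clec1b by -0.13 ± 0.13. The summed platelet signal, added over genes on the linear scale, was 697.4 and 678.5 in the threat pools and 678.9 and 736.4 in the control pools. Of 13 lymphocyte genes the pools lay apart in 4 (3 lower, 1 higher), beside 18.8% of all genes lower and 26.2% higher. Cd4 differed by -0.26 ± 0.14, Cd3d by -0.20 ± 0.15, Ighm by 0.19 ± 0.24 and Cd79b by 0.19 ± 0.09. In 4 of the 13 no pool lay above the Bacillus range. The 11 monocyte genes had a median of -0.18, or 0.03 without threat pool 1, with Lyz2, the lysozyme also found in microglia, at -0.58 ± 0.26, Fn1 at -0.46 ± 0.69, Ms4a4c at -0.44 ± 0.10 and Plac8 at -0.38 ± 0.14. No platelet, lymphocyte or monocyte gene passed limma's test, in which their smallest adjusted p were 0.461, 0.51 and 0.423.

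Endothelial and choroid plexus markers were read to set their values beside those of the members. Of 13 endothelial genes, 10 averaged lower. In 6 the threat pools were both below the control pools and in 0 both above, beside 18.8% and 26.2% of all genes. The median was -0.28, or -0.04 without control pool 2. Their summed signal was 2580 and 3256 in the threat pools and 2903 and 4060 in the control pools, which overlap. Vwf differed by -1.08 ± 0.39, Pecam1 by -0.63 ± 0.22, Emcn by -0.41 ± 0.18 and Cldn5 by -0.34 ± 0.13. Of the 13, 2 (Vwf and Pecam1) were at least 1.5-fold lower with separate pools, beside 0.715% of all genes. The sum over the endothelial genes was higher in pool number 2 of each group. Of 10 choroid plexus genes, 7 averaged lower, and in 3 no pool lay above the Bacillus range. The pools lay apart in 4 of the 10 (3 lower, 1 higher), beside 18.8% of all genes lower and 26.2% higher. The summed signal of the 10 genes was 370.2 and 497.5 in the threat pools and 901.7 and 525.6 in the control pools. Both threat sums were lower, an order that rests on Ttr. Ttr measured 6.15 and 6.18 in the threat pools and 9.05 and 6.48 in the control pools, with control pool 1 apart as for the calgranulins. The difference of Ttr, -1.60 ± 0.78, also met the 1.5-fold size with separate pools. Clic6 differed by -0.56 ± 0.15, Kcnj13 by -0.27 ± 0.49 and Folr1 by -0.08 ± 0.10. The part of these cells in the values of S100a8, S100a9 and Lrg1 was not tested. Of 9 cortical neuron genes the pools lay apart in 7 (5 lower, 2 higher), beside 18.8% of all genes lower and 26.2% higher. Tbr1 differed by -0.53 ± 0.11, Gad1 by -0.42 ± 0.09, Neurod6 by -0.39 ± 0.10 and Gad2 by -0.28 ± 0.12. The 2 higher were Slc17a7 (0.23 ± 0.10) and Nrgn (0.08 ± 0.09). No endothelial, choroid plexus or neuron gene passed limma's test, in which their smallest adjusted p were 0.452, 0.433 and 0.413.

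The genes nearest in pattern were found by the Euclidean distance between mean-centred log2 values over the 4 pools, which describes these arrays only. Nearest to Lcn2 outside the members were single probe sets of Ywhaz (distance 0.39), the myelin protein gene Mobp (0.60), the myelin tight junction gene Cldn11 (0.91), Cd24a (0.96) and the myelin proteolipid gene Mal (1.01). The 6 other probe sets of Ywhaz had a median difference of -0.12, the 4 others of Mobp -1.16 and the other of Mal -1.03. Lrg1 lay at 0.91 from Lcn2, with 5 probe sets closer. Nearest to S100a8 outside the members were Ccdc153 (0.16), Gm19439 (0.28), Tmem212 (0.29), 1 probe set of Prkcd (0.31) and the growth hormone gene Gh (0.32). Ccdc153 and Tmem212 are known from ciliated cells of the ventricle lining, and Ccdc153 measured 4.78 and 4.62 in the threat pools and 6.15 and 5.00 in the control pools. Nearest to Alas2 were Psors1c2 (0.04), Akirin1 (0.05), Chm, Zfhx3 and Cilp (each 0.07). The other probe sets of Akirin1 and Chm differed by 0.03 and 0.06, and the 5 others of Zfhx3 had a median of -0.08, so the likeness to Alas2 of these 3 genes rests on 1 probe set of each. The other probe set of Prkcd differed by 0.07. The threat pools of Psors1c2 (4.04 and 3.83), Cilp (4.18 and 4.06) and Tmem212 (3.95 and 3.91) lay inside the Bacillus range.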

How the data were processed

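Total RNA of prefrontal cortex, pooled from 5 mice per array, was measured on 4 Affymetrix MOE430 2.0 arrays. The values deposited by the authors are log2 expression per probe set. Per the submitters' processing notes RMA was used, with version, settings and chip definition not given in the sources used here. Such values are relative between arrays, so a shift of most transcripts would not show. Depth has no meaning for arrays, whose number limits the precision.

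Of 45101 probe sets, 64 controls were left out; 34945 had 1 symbol and 932 several in the platform annotation. Each gene was read by its probe set of highest mean. Threat minus control was fitted over 45037 probe sets with limma 3.58.1 in R 4.3.3 (lmFit, eBayes, 2-sided, Benjamini-Hochberg adjustment, 2 residual degrees of freedom) and SE values are from this fit, which was tested on simulated data. "Separate pools" means both threat pools on one side of both control pools; the rule of size adds 1.5-fold. Pools of 5 mice do not show the spread between animals, and the labels do not say whether pools came from separate cages or days.

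Members and lists were chosen with earlier results of these data known. The 14 lists held 237 genes by known function, of which 205 were measured under 1 symbol. Named were all members, up to 4 genes per list with the largest absolute difference and a pool above the Bacillus range, and the 5 genes nearest in pattern to Lcn2, S100a8 and Alas2. Saa3, Serpina3n, Alas1, Gata1, Cxcr2, Cd177, Snap25, Slc17a7, Nrgn, Mpo, Prtn3, Elane, Cyba, Bsg, Tlr4 and the joint globin probe sets were added after their values were seen. Promoter sequences are from RefSeq (GRCm38.p6), found for 8 of the 9 members. Alternatives were cyclic loess, median centring, the pool number as a block, an intensity trend, filters on dim or cross-matching probe sets, averaged probe sets and leaving out each pool.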

Additional observations from a re-analysis of the deposited data

How the results depend on the processing

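No probe set and no list gene passed an adjusted p of 0.05 in limma under any alternative (0 of 45037 in the reported fit, with 4774 at an unadjusted p under 0.05). With the pool number as a replicate block the count was also 0, with 6054 at an unadjusted p under 0.05. The differences of pool 1 minus pool 2 correlated at 0.33 between threat and control over all probe sets, and 2 shared numbers do not show that the pools were paired. With 1 pool of each group per number the block cannot move a difference of means, so the member medians of -0.955 (neutrophil and acute phase) and -0.268 (erythroid) are the same with it by construction. The neutrophil and acute phase median ranged from -1.422 without control pool 2 to -0.377 without control pool 1. The erythroid median was -0.441 without Slc4a1, which no pool measured above the Bacillus range, and -0.417 without probe sets ending in _x_at or _s_at. Without 1 pool it ranged from -0.272 to -0.265, which are the values of Bpgm, the middle of the 3 genes. Alas2 then ranged from -0.708 to -0.518 and the brightest Slc4a1 probe set from -0.181 to 0.099. Over the 91 values of 13 member probe sets under the alternatives, 4 did not keep their sign: Ngp at 0.013 and Slc4a1 at 0.099 without threat pool 2, Slc4a1 at 0.049 without control pool 1, and another Slc4a1 probe set at 0 without control pool 2. In all, 374 probe sets met the rule of size (324 lower, 50 higher), 48 did at 2-fold, and 673 to 818 without 1 pool, since fewer pools then need to lie apart. The lean to lower values depended on the pools. It was 352 lower against 321 higher when threat pool 1 was left out and 471 against 311 for control pool 2, but 709 against 109 for threat pool 2 and 590 against 146 for control pool 1. Some list medians changed sign: that of haem synthesis and iron (0.042) was -0.008 with cyclic loess, -0.011 with averaged probe sets and between -0.003 and 0.097 without 1 pool, that of red cell membrane genes (-0.016) was 0.02 with median centring, and that of monocyte genes (-0.183) ranged from -0.196 to 0.033 without 1 pool, the last without threat pool 1. Without 1 pool the medians of the receptor, lymphocyte and erythroid regulator lists reached 0.107, 0.074 and 0.016. Of 142 list medians under the alternatives, 106 moved by less than the spread between pools. Over the probe sets annotated to several globins the median difference was -0.43, against -0.155 for the globin list, an alternative chosen after seeing the data. No cause of these shifts was tested.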
